A study of Mus musculus with 6 samples.

Results

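The constitutive proteasome subunits are the 36 genes that encode the core particle, its regulatory cap and its activators: the alpha ring (Psma1 to Psma7), the beta ring (Psmb1 to Psmb7), the ATPases of the cap's base (Psmc1 to Psmc6), the other subunits of base and lid (Psmd1 to Psmd8 and Psmd11 to Psmd14) and the activators Psme1 to Psme4. All 36 were found by gene symbol among the 19057 named genes of the arrays, and each gene was read from the probe with the highest mean signal of its probes. The samples were intestines of male mice, C57 and 4 weeks old by the labels (C57BL/6J in the study's methods), that received total body radiation of 7 Gy. Mice of the free Ub group (3 samples) were then given free ubiquitin and those of the PBS group (3 samples) PBS. The labels place collection 3.5 days after radiation, whereas the text of the study also gives an earlier time and an older age. The labels put the injection after radiation and the study's methods put it before, and the labels give no dose of free Ub. Both groups were irradiated and no unirradiated intestine is among the samples, so the effect of radiation itself was not measured.

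Ubiquitin is attached in chains to proteins that are to be destroyed, and the proteasome is the machine that destroys them. The alpha rings form the gate of the core particle, and the beta rings hold its proteolytic sites. The regulatory cap binds the chain, cuts it off so that ubiquitin returns to the free pool, and unfolds the protein with a ring of ATPases. In the intestine, as in other tissues with rapid turnover, proteasomes degrade cell cycle regulators, the tumour suppressor p53 and damaged proteins, and they produce the peptides shown on MHC class I.

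Transcripts of the proteasome differed little between free Ub and PBS intestines. Values are log2 signals, in which a difference of 1 is a 2-fold change. Among the 28 subunits with a mean signal above 6, where array noise is low, 14 had a higher and 14 a lower mean signal in free Ub than in PBS samples, and the differences lay between -0.42 and 0.20. The median difference was 0.00 over the 36 subunits and -0.00 over all 19057 named genes. In limma 0 of the 36 subunits passed an adjusted p under 0.05 (0.053% of all probes did), and at an unadjusted p under 0.05 the count was 0 higher and 2 lower, Psme3 and Psme1. Of all named genes by their brightest probe, 2.34% were higher and 3.4% lower at that unadjusted p, so the members' count is close to the background. By the methods' t-test, paired or unpaired, 0 subunits passed after adjustment as well. At the study's threshold, a fold change above 2 with an unadjusted p under 0.05, 0 subunits were called, against 2.19% of named genes. That share is not a like background for bright subunits. Whatever the p, 10 of the 6141 named genes with a mean above 6 differed by more than 1 in either direction. Among the 12916 named genes with a mean of 6 or below it was 2221.

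On the brightest probes, the 95% confidence interval of the difference stayed within -1 and 1 for all 28 bright subunits. It stayed within -0.5 and 0.5 for 21 of them. These intervals come from limma for each gene and are not adjusted for their number. They also depend on the probes fitted. With only probes whose mean lay over the median, the unadjusted limma p of Psmb2 rose from 0.289 to 0.617 at the same difference. That of Psma4 rose from 0.21 to 0.395, while that of the dim Psma6 fell from 0.204 to 0.152. Intervals in that fit were not computed. The median SD within groups was 0.14 for the bright subunits, against 0.19 for the 6141 named genes with a mean above 6. The median absolute difference of the bright subunits was 0.10, against 0.12 for those genes. The widest interval among bright subunits belonged to the lid subunit Psmd8 (-0.57 to 0.77), for which PBS 3, at 9.66, was the lowest of the 6 samples.

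**Figure D1:**
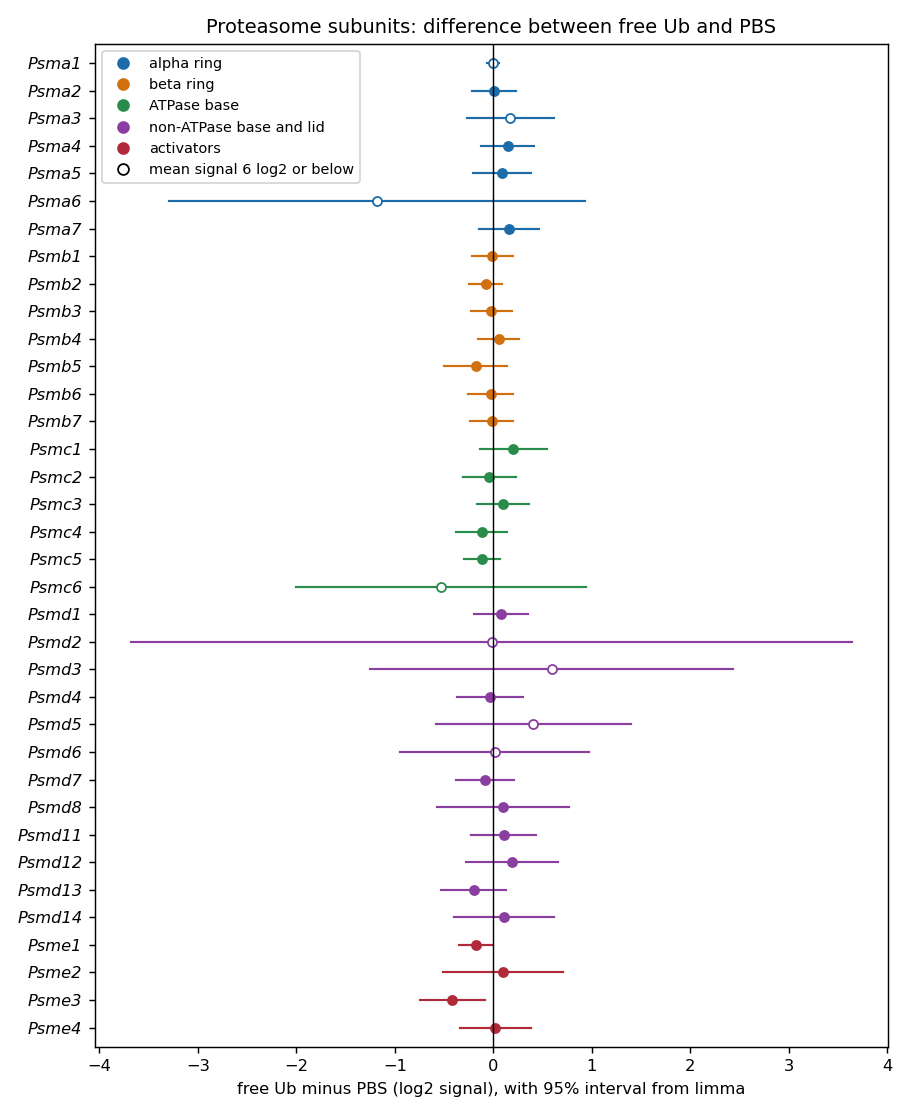
Difference between free Ub and PBS in log2 signal (points) with the 95% interval from limma (lines) for the 36 subunits, coloured by their place in the complex; open points have a mean signal of 6 or below. Bright subunits lie between -0.42 and 0.20, while Psmd2 has the widest interval (-3.68 to 3.64); the narrow line of Psma1 reflects a probe at the floor on all 6 arrays.

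The activators held both subunits with an unadjusted p under 0.05. Psme3 encodes the nuclear activator PA28 gamma, which lets the core particle degrade certain proteins without ubiquitin. Its log2 signal was 8.70, 8.53 and 8.52 in free Ub samples 1 to 3, against 9.02, 9.19 and 8.79 in PBS samples 1 to 3. All 3 free Ub values lay below all 3 PBS values, and the group means were 8.58 ± 0.10 and 8.999 ± 0.20 (free Ub and PBS, SD, n = 3 each). The difference of -0.42 (1.34-fold lower with free Ub) had a 95% interval of -0.75 to -0.09, an unadjusted limma p of 0.0236 and an adjusted p of 0.818. Without PBS 1, free Ub 2 or free Ub 3 the unadjusted p of Psme3 was no longer under 0.05, with differences of -0.41, -0.39 and -0.39. Psme3 has 1 probe, so that no other probe can be set beside it.

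Psme1 encodes PA28 alpha, which with the product of Psme2 forms a cytosolic activator that interferon gamma induces and that shapes peptides for MHC class I. On its brightest probe it read 11.52, 11.44 and 11.56 in free Ub samples 1 to 3, against 11.73, 11.75 and 11.57 in PBS samples 1 to 3. The groups did not overlap, but the highest free Ub and the lowest PBS value were nearly equal. The difference was -0.18 (95% interval -0.35 to -0.00, limma unadjusted p = 0.0489, adjusted p = 0.872). Of the fits without 1 sample, only that without PBS 3 kept Psme1 at an unadjusted p under 0.05 (-0.23). The other probe of Psme1 read higher with free Ub (0.08), and the mean of its probes gave -0.05 (unadjusted p = 0.638).

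Psme2, the partner of Psme1, read 8.69, 8.39 and 8.15 in free Ub samples 1 to 3, against 8.24, 8.03 and 8.66 in PBS samples 1 to 3. These values overlapped, and the difference was 0.10 (95% interval -0.51 to 0.71). Psme4, which encodes the activator PA200 that promotes the degradation of acetylated histones, differed by 0.02 (-0.34 to 0.38). Genes of the interferon response were lower with free Ub in 4 of the 5 measured, and 3 of these had groups that did not overlap: Oas2 differed by -1.51, Irf7 by -0.67 and Tap1, a transporter of MHC class I peptides, by -0.37 (limma adjusted p = 0.482, 0.571 and 0.739). Of all named genes, 6.69% lay wholly below PBS. Their part in the values of Psme1 was not tested. Irf1, an interferon-induced transcription factor, differed by 0.10.

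**Figure D2:**
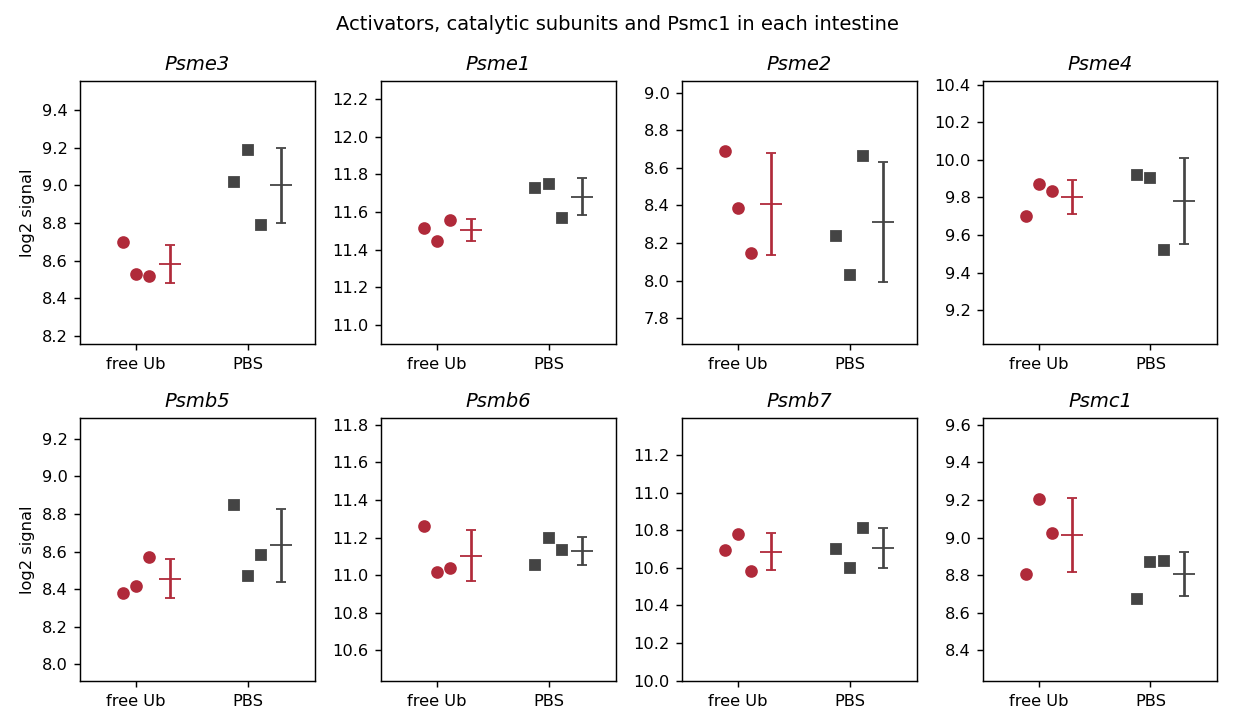
log2 signal of the 4 activators, the 3 catalytic subunits and Psmc1 in each free Ub (circles) and PBS (squares) sample, with the group mean and SD beside the points; each panel spans the same number of log2 units. Free Ub lies below PBS without overlap for Psme3 and Psme1, and the groups overlap for the other 6 genes.

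The beta ring showed small differences throughout. All 7 of its subunits were bright. On their brightest probes 1 was higher and 6 lower in mean signal with free Ub, and the differences ran from -0.18 to 0.05 with a median of -0.02. All 7 intervals of these probes lay within -0.5 and 0.5. Psmb2, Psmb6 and Psmb7, lower on the brightest probe, were each higher on at least 1 other bright probe.

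The catalytic subunits did not separate the groups. Psmb5, which carries the chymotrypsin-like site that proteasome inhibitors target, read 8.38, 8.42 and 8.57 in free Ub samples 1 to 3, against 8.85, 8.47 and 8.58 in PBS samples 1 to 3. PBS 1 was the highest, and the other PBS values fell within or next to the free Ub range (difference -0.18, 95% interval -0.50 to 0.14, limma adjusted p = 0.872). Psmb6, with the caspase-like site, read 11.26, 11.02 and 11.04 in free Ub samples, against 11.05, 11.20 and 11.13 in PBS samples (difference -0.02, interval -0.25 to 0.21). Its other probe gave 0.04. Psmb7, with the trypsin-like site, read 10.69, 10.78 and 10.58 in free Ub samples, against 10.70, 10.60 and 10.81 in PBS samples (difference -0.02, interval -0.23 to 0.20). Its other bright probes gave 0.23 (interval -0.12 to 0.58), 0.15 (-0.02 to 0.32) and -0.12 (-0.47 to 0.23), each with overlapping groups. Of the structural subunits of the ring, Psmb4 read 12.28, 12.38 and 12.39 in free Ub samples, against 12.35, 12.38 and 12.15 in PBS samples. On the brightest probes this was the 1 positive difference of the ring (0.05, interval -0.16 to 0.26). Psmb2 read 11.20, 11.26 and 11.40 in free Ub samples, against 11.34, 11.40 and 11.35 in PBS samples, with the narrowest interval of the bright subunits (difference -0.08, interval -0.25 to 0.09). Free Ub 1 and 2 were its lowest values, while free Ub 3 was level with PBS 2. Another bright probe of Psmb2 went the opposite way, at 10.76, 10.80 and 10.83 in free Ub samples, against 10.50, 10.68 and 10.75 in PBS samples, with no overlap (0.15, interval -0.05 to 0.35, limma adjusted p = 0.872). Psmb1 and Psmb3, which like Psmb2 and Psmb4 carry no active site, differed by -0.01 and -0.02. 

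The upstream sequences of Psmb5, Psmb6 and Psme3 are shown here. Psmb5 and Psmb6 were chosen because they hold a match to an element that factors such as NRF1 (Nfe2l1) bind. NRF1 raises proteasome transcription when proteolysis falls short. Psme3 was chosen because it had the smallest p of the members. Each run is the 250 bases before the start site of the RefSeq gene (GRCm38.p6), 5′ to 3′ on the gene's strand, and capitals mark a motif that was found. The motif of Psmb5 (chr14:54617996-54618245, minus strand) begins at position -47 from the start site and that of Psmb6 (chr11:70525107-70525356, plus strand) at -9. In Psme3 (chr11:101315963-101316212, plus strand) it begins at -14.
Psmb5: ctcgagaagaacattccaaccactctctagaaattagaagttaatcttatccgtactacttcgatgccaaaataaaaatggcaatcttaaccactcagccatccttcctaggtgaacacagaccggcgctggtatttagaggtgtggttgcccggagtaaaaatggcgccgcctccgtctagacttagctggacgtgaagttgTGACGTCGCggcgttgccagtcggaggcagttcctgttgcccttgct
Psmb6: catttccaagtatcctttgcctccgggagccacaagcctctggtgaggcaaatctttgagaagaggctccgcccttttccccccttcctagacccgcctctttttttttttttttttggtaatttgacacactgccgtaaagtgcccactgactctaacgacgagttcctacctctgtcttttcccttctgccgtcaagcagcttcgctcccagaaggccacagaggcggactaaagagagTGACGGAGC
Psme3: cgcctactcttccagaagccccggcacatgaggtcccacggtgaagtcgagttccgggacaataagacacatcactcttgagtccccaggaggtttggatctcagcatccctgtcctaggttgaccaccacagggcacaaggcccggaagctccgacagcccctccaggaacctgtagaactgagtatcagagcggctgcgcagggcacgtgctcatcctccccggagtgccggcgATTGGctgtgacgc
The motif in Psmb5 and Psmb6 is the antioxidant response element core TGACNNNGC, and the motif in Psme3 is the CCAAT box, read on the opposite strand as ATTGG. Both were searched on both strands, with the interferon-stimulated response element core (GAAA, 2 bases of any kind, GAAA), which these 3 windows do not hold. Of the 36 subunits 30 had a promoter in the RefSeq table. The antioxidant response element core was in 4 of these 30 (Psmb5, Psmb6, Psmc6 and Psmd12), and 11.5% of all 27025 genes with such a window hold it. The CCAAT box was in 11 of 30, against 37.5% of all genes, and the interferon element in 2 of 30 (Psmb3 and Psmd4), against 3.46%. A match is a description of letters and shows no binding.

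Nfe2l1 itself read 8.84, 8.98 and 8.87 in free Ub samples 1 to 3, against 8.86, 9.08 and 8.93 in PBS samples 1 to 3, with overlapping groups (difference -0.06, 95% interval -0.26 to 0.14). Its relative Nfe2l2 differed by 0.17 (95% interval -0.13 to 0.47), also with overlap. Of 9 genes of transcriptional control, 8 were measured, 3 of them higher and 5 lower in mean signal, and 0 passed at an unadjusted p under 0.05. Those with the smallest p were Stat3, a transcription factor activated by cytokines (-0.29, unadjusted p = 0.0704), and Foxm1, a factor of dividing cells (-0.37, unadjusted p = 0.11). With all probes of a gene averaged these differences were -0.07 and -0.16.

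The alpha ring was bright for 4 of its 7 subunits, and these 4 had a higher mean signal in free Ub samples without passing the test. Psma7 read 10.31, 10.22 and 10.06 in free Ub samples 1 to 3, against 9.89, 9.99 and 10.22 in PBS samples 1 to 3, and the groups overlapped (difference 0.16, 95% interval -0.15 to 0.46). Its other probe gave 0.10. Psma4 read 10.98, 10.87 and 11.07 in free Ub samples, against 10.65, 10.89 and 10.93 in PBS samples (0.15, interval -0.12 to 0.42). Psma5 differed by 0.09 and Psma2 by 0.01.

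The other alpha subunits were not well measured. Psma1, the only subunit at the floor on all 6 arrays, has a single probe, and a core particle cannot be built without its product, so its value says nothing of the gene's level. Psma3 was at the floor on 5 arrays and read 0.53 in free Ub 2. Psma6 read 1.77, 3.26 and 0.35 in free Ub samples 1 to 3, against 2.93, 2.79 and 3.20 in PBS samples 1 to 3. Free Ub 2 was the highest of its 6 values and free Ub 3 the lowest, and the difference of -1.18 had an interval of -3.30 to 0.93. It was -1.92 without free Ub 2 (limma unadjusted p = 0.0247, adjusted p = 0.756) and -0.46 without free Ub 3.

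The ATPases of the base, which unfold the substrate and open the gate of the alpha ring, went both ways. Psmc1, whose tail reaches into the alpha ring, read 8.81, 9.20 and 9.03 in free Ub samples 1 to 3, against 8.67, 8.87 and 8.88 in PBS samples 1 to 3, the highest difference of a bright subunit (0.20, 95% interval -0.13 to 0.54, limma adjusted p = 0.872), with overlap through free Ub 1. Psmc5 read 10.01, 9.79 and 9.97 in free Ub samples, against 10.06, 10.05 and 10.01 in PBS samples. Its groups touched at 10.01 without overlap (difference -0.12, interval -0.30 to 0.07), while its other probe gave 0.19. Psmc2, Psmc3 and Psmc4 differed by -0.04, 0.10 and -0.12. Psmc6 was dim at 2.60, 1.86 and 3.44 in free Ub samples, against 3.58, 3.51 and 2.41 in PBS samples (difference -0.53, interval -2.01 to 0.94, and -0.15 without free Ub 2).

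Psmc5, Psme1 and Psme3 were the 3 subunits whose groups did not overlap, each lower with free Ub, and 0 lay wholly above PBS. Of all named genes, 6.69% lay wholly below and 3.74% wholly above.

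Among the 12 subunits of the non-ATPase base and lid, 8 were higher and 4 lower in mean signal with free Ub (median 0.09). Of the 8 bright ones, 5 were higher and 3 lower, also with a median of 0.09. With all probes of a gene averaged the median over the 12 subunits was -0.06. Psmd13, a lid subunit, read 11.02, 10.64 and 10.71 in free Ub samples 1 to 3, against 10.99, 11.09 and 10.89 in PBS samples 1 to 3. Free Ub 2 and 3 were the lowest and free Ub 1 lay among the PBS values (difference -0.20, 95% interval -0.53 to 0.13, limma adjusted p = 0.872). Psmd12, another lid subunit, read 8.81, 9.06 and 9.08 in free Ub samples, against 8.61, 8.64 and 9.12 in PBS samples, where PBS 3 was the highest of all (0.19, interval -0.27 to 0.66). Psmd14, the deubiquitinase that frees the chain from the substrate, differed by 0.11 (-0.40 to 0.62), and Psmd4, which binds the chain, by -0.04 (-0.37 to 0.30). The scaffold Psmd1 differed by 0.08 on its brightest probe and by -0.04 and -0.72 on its others. The partner of Psmd14 in the lid, Psmd7, differed by -0.09, and Psmd11, which clamps lid and base together, by 0.10.

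Psmd2, Psmd3, Psmd5 and Psmd6 were dim. The scaffold Psmd2 was at the floor in free Ub 1 and 3 and in PBS 1 and 2, and read 3.10 in free Ub 2 and 3.14 in PBS 3. Psmd3, a lid subunit, read 2.36, 2.47 and 1.03 in free Ub samples 1 to 3, against 0.39, 2.38 and 1.32 in PBS samples 1 to 3, with overlap (0.59, 95% interval -1.25 to 2.43, and -0.21 with its probes averaged). Psmd6, a lid subunit, differed by 0.01 with a wide interval (-0.95 to 0.97). Psmd5, an assembly chaperone of the base, read 5.17, 5.38 and 5.38 in free Ub samples, against 4.41, 4.63 and 5.67 in PBS samples. PBS 3 was the highest of its values and the other PBS values the lowest (0.41, interval -0.58 to 1.40). Without PBS 3 the difference of Psmd5 was 0.79 (limma unadjusted p = 0.00371, adjusted p = 0.258), while its other probe gave -1.46 and the average of its probes -0.53.

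**Figure D3:**
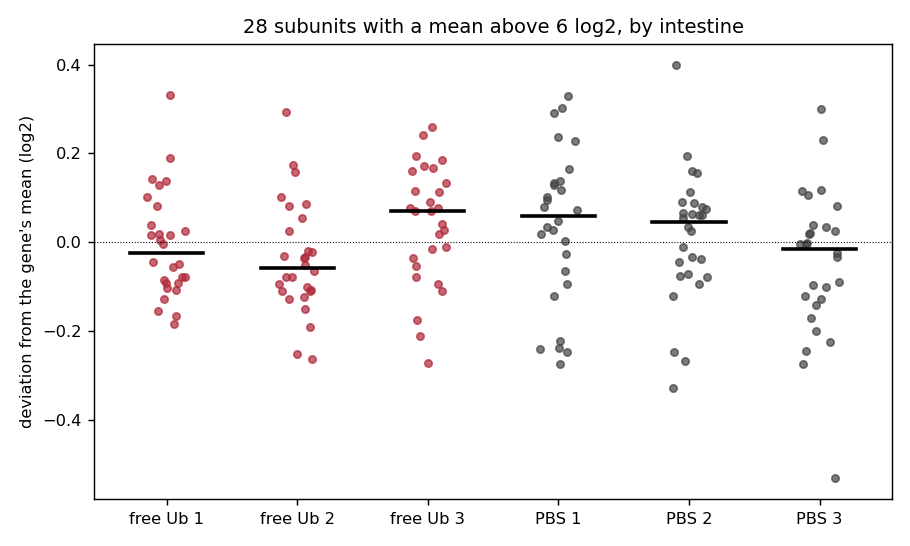
Deviation of each of the 28 subunits with a mean above 6 from its own mean over the 6 samples, in log2 units, by sample (points), with the median of each sample (bars). The medians of the free Ub samples are -0.02, -0.06 and 0.07 and those of the PBS samples 0.06, 0.04 and -0.01, so that no group is shifted as a whole.

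The samples of a group differed from each other as much as the groups did. The median deviation of the 28 bright subunits was -0.02, -0.06 and 0.07 in free Ub samples 1 to 3, against 0.06, 0.04 and -0.01 in PBS samples 1 to 3. The sample farthest from a subunit's mean was PBS 1 for 7 and PBS 3 for 7 of the 28. Over all named genes with a mean above 6 it was PBS 1 for 24.2% and PBS 3 for 17.8%. PBS 1 also correlated less with the other 5 arrays (r between 0.949 and 0.954 over probes above the floor) than these did among themselves (0.961 to 0.968).

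Other probes of the same gene can be set beside these small differences, though they may not read the same transcripts. The 36 subunits have 63 probes, and 21 subunits have more than 1. For 12 of the 21 at least 1 probe was higher and at least 1 lower with free Ub. Of the 9 with at least 2 probes above 6, 7 went both ways (Psmb2, Psmb6, Psmb7, Psmc5, Psmd1, Psmd7 and Psme1), and Psma7 and Psmd14 were higher on each bright probe. At an unadjusted p under 0.05, 1 of the 63 probes was higher and 3 lower, against 2.5% and 2.65% of all probes, and 0 passed an adjusted p.

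Of the probes that were not the brightest of their gene, 1 of Psmd1 and 1 of Psmc2 passed at an unadjusted p; they are named here after their values were seen. The dimmest probe of Psmd1 read 6.39, 6.64 and 6.53 in free Ub samples 1 to 3, against 7.46, 7.12 and 7.14 in PBS samples 1 to 3, with no overlap (-0.72, 95% interval -1.06 to -0.38, limma unadjusted p = 0.00324, adjusted p = 0.459). The brighter probes of Psmd1 gave 0.08 and -0.04. The mean signal of this dimmest probe, 6.88, was still above 6. Its difference lay outside the range of the bright subunits on their brightest probes (-0.42 to 0.20). It was lower with free Ub in all 15 alternatives run for it, with an unadjusted p under 0.05 in 14. The methods' t-test paired gave 0.0573. The dimmer probe of Psmc2 read 5.97, 5.47 and 5.79 in free Ub samples, against 5.43, 4.998 and 5.07 in PBS samples (0.58, interval 0.08 to 1.07), where the brighter probe gave -0.04. Without free Ub 1, free Ub 3, PBS 2 or PBS 3 the unadjusted p of this dimmer probe was 0.087, 0.0891, 0.0952 and 0.0937. Probes of Psmb2, Psmd3 and Psmd5 with opposite signs lay more than 1 log2 apart, each through a probe with a mean under 3. Which transcripts each probe reads was not examined, because probe sequences were not used here.

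**Figure D4:**
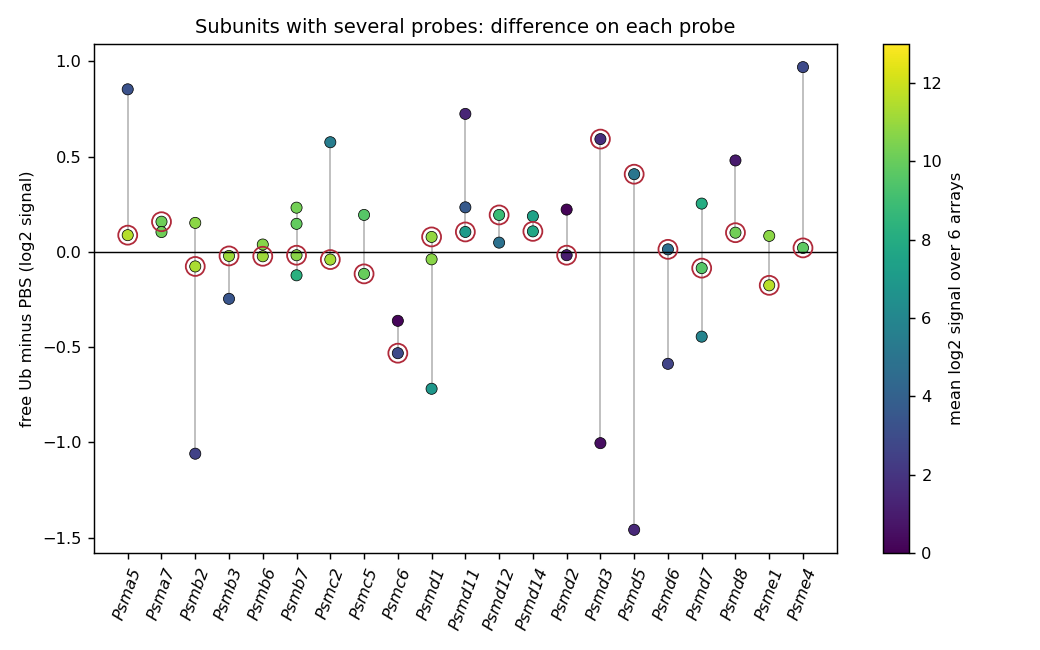
Difference between free Ub and PBS in log2 signal on each probe of the 21 subunits with several probes, coloured by the probe's mean signal; a ring marks the brightest probe. The brightest probes lie near 0, apart from those of Psmc6, Psmd3 and Psmd5, which are dim, while dimmer probes of the same gene reach -1.46 (Psmd5) and 0.97 (Psme4).

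Subunits that replace members of the core had differences of similar size, with 0 of the 5 at an unadjusted p under 0.05. Psmb8, the inducible counterpart of Psmb5, read 11.43, 11.18 and 11.18 in free Ub samples 1 to 3, against 10.75, 11.21 and 11.35 in PBS samples 1 to 3 (difference 0.16, 95% interval -0.34 to 0.66). Psmb9, the counterpart of Psmb6, differed by -0.10 (-0.36 to 0.16) and Psmb10, that of Psmb7, by -0.08 (-0.62 to 0.45). Psmb11, of the thymus, was at the floor on all 6 arrays, and Psma8, of the testis, at the floor in free Ub 2, PBS 2 and PBS 3.

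Of the 9 assembly factors 8 were measured, 4 higher and 4 lower in mean signal. Psmg3, a chaperone of the alpha ring, had the smallest p of them and read 7.79, 7.68 and 7.66 in free Ub samples 1 to 3, against 7.87, 7.96 and 7.83 in PBS samples 1 to 3, with no overlap (-0.18, 95% interval -0.33 to -0.03, limma unadjusted p = 0.0304, adjusted p = 0.87). The unadjusted p of Psmg3 was under 0.05 in 5 of 16 alternatives and reached 0.272. Psmd10, a chaperone of the base, differed by 0.17 (unadjusted p = 0.23). Pomp, which matures the core particle, differed by -0.02 (-0.21 to 0.17). Of the 8 associated proteins 5 were measured and 1 was higher. The deubiquitinase Uchl5 differed by -0.14 and the ligase Ube3c, which extends chains at the proteasome, by 0.14. With all probes of a gene averaged both turned, to 0.08 for Uchl5 and to -0.71 for Ube3c (limma unadjusted p = 0.0192, adjusted p = 0.743).

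Shuttle receptors and VCP were lower in mean signal for each of the 5 measured, with 0 at an unadjusted p under 0.05 in limma. Vcp, the segregase that extracts ubiquitinated proteins, read 11.35, 11.49 and 11.34 in free Ub samples 1 to 3, against 11.72, 11.74 and 11.37 in PBS samples 1 to 3. Free Ub 2 lay above PBS 3, so the groups overlapped (-0.21, 95% interval -0.54 to 0.11). Rad23b, which carries chains to the proteasome, differed by -0.16 (-0.42 to 0.09) on its brightest probe.

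Of 10 defining genes of intestinal epithelium, Vil1, Krt20, Muc2 and Alpi read above 11 in each sample. The probe of Epcam stayed under 5, and that of Fabp2 was at the floor in free Ub 2, free Ub 3 and PBS 3. Of these 10, 3 were higher and 7 lower in mean signal with free Ub, with a median difference of -0.05. Only Cdx2, an intestinal transcription factor, had groups without overlap, lower with free Ub (-0.27, limma unadjusted p = 0.0181, adjusted p = 0.75). Of all named genes, 6.69% lay wholly below PBS. The unadjusted limma p of Cdx2 was 0.0677 with the replicate block, 0.0573 without PBS 1 and 0.0528 without PBS 3. With the 2 filters on dim probes it was 0.121 and 0.122, and the methods' t-test paired gave 0.0991. The unadjusted p of Cdx2 was under 0.05 in 10 of 16 alternatives. The pancreatic enzyme gene Cpa1 ranged from 5.82 to 12.92 in free Ub samples and from 9.06 to 13.13 in PBS samples, lowest in free Ub 3. Over the 3 of 4 pancreas genes measured the median deviation was 1.09, 0.96 and -3.45 in free Ub samples 1 to 3, against 0.60, -1.22 and 2.55 in PBS samples 1 to 3. Genes of smooth muscle and stroma deviated most in PBS 1 (median 0.59) and PBS 3 (-0.41). For immune cell genes (4 of 7 measured) the median deviation was 0.63, -0.23 and -0.12 in free Ub samples 1 to 3. In PBS samples 1 to 3 it was -0.41, -0.37 and 0.57. The part of these differences in the subunits' values was not tested, and fewer cells of a type cannot be told apart from less RNA per cell.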

How the data were processed

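RNA of 6 intestinal samples (3 free Ub, 3 PBS) was hybridised to Illumina MouseWG-6 v2 arrays. The authors normalized the signals by cubic spline in GenomeStudio, whose version is not given in the sources used here. The deposited table was taken as log2 signals because its highest value is 14.49; no source states the transform. Median, upper quartile and highest value are nearly equal between the 6 columns, so differences are relative to the bulk of probes. How background was handled is not described, and 32.2% to 33.7% of the probes of each array lie at a floor near 0 (no more than 0.01 above the lowest value of that array).

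Probes were named by the platform annotation, with symbols updated through Entrez identifiers. Of 45281 probes 34885 have 1 symbol, 18 several and 10378 none. All were fitted with limma 3.58.1 in R 4.3.3 (free Ub minus PBS, no covariate, two-sided) and p-values were adjusted by Benjamini-Hochberg across the whole table. The fit was also run on simulated data with independent noise, in which only probes with a mean above 6 were changed. That run did not recreate values at the floor and does not test changes on dim probes. No detection p-values were used, so precision is judged from brightness and the spread between samples. Levels of different probes were not tested against each other. Nothing in the labels says that the arrays are of separate mice, so p-values measure the spread between these samples, and with 3 against 3 an exact permutation test of a single value cannot go below 0.1.

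Values are given in every sample for subunits at an unadjusted p under 0.05, the catalytic subunits, the 2 subunits of smallest p and the largest differences in each part, subunits with floor values and subunits whose probes disagree by more than 1 log2. Of each related list the 2 genes of smallest p are named, and a few further genes are given for their role. The members and lists were chosen with earlier results of these data known. Alternatives were quantile normalization, median centring, raising values under 4 to 4, filters on dim probes, averaging the probes of a gene, an intensity trend with robust variances, the methods' t-test unpaired and paired, a replicate block and leaving out each sample. Genes without a probe of a single symbol were not analysed here.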

Additional observations from a re-analysis of the deposited data

How the results depend on the processing

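The count of subunits at an adjusted p under 0.05 was 0 under all 16 alternatives and for the 28 bright subunits alone, and the lowest adjusted p of a named subunit was 0.258. With the replicate number as a block the median difference stayed at 0.00, and 1 subunit, Psme3, was lower at an unadjusted p under 0.05 (0 with the methods' t-test paired). Over the probes above the floor, samples of the same number did not deviate together (r = -0.0028, 0.020 and -0.091). Whether such samples share more than a number was not tested.

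The 2 subunits lower at an unadjusted p under 0.05 became 1 with median centring, with values raised to 4, with a trend and robust variances, with the methods' t-test unpaired and with all probes of a gene averaged, and 0 with only the brighter probes (mean over the median) or, added after seeing the data, above the floor on all arrays. Without 1 sample the count lower was 0 to 3 and the count higher 0 to 2. Averaging the probes of a gene gave 1 higher (Psme4). Without PBS replicate 3, Psmd5 and Psmd12 were higher and Psmd4, Psme1 and Psme3 lower; without PBS replicate 1 Psmd14 alone passed (higher). Without free Ub replicate 1, Psmc1 was higher and Psmd13 and Psme3 lower. Psma6 alone passed (lower) without free Ub replicate 2, Psmb2 alone (lower) without free Ub replicate 3 and Psme3 alone without PBS replicate 2. Psme3 kept its direction in all 16 alternatives, between -0.52 and -0.32, with an unadjusted p under 0.05 in 10. Over all probes the 24 adjusted calls became 11 with the methods' t-test unpaired, 75 to 112 without 1 sample, and 0 with the replicate block, the methods' t-test paired, the trend, values raised to 4 and either filter.

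Averaging them also turned the median from negative to positive for the ATPase base (0.069, against -0.078 on the brightest probes) and the activators (0.026 against -0.078), and turned it negative for the non-ATPase base and lid (-0.064 against 0.089). For the alpha ring it gave 0.13 against 0.087. The alpha ring had a median of 0.12 with values raised to 4 or with bright subunits only, and of -0.0020 to 0.10 without 1 sample. The activators had -0.17 to -0.045 without 1 sample. Of the 19 named subunits not wholly at the floor, 10 kept their direction in every alternative run for them, which leaves out values raised to 4 for Psma6 and Psmc6. On that average the difference turned to 0.0075 for Psmb6, 0.059 for Psmb7, 0.039 for Psmc5, 0.10 for Psmd2, -0.21 for Psmd3, -0.53 for Psmd5, 0.050 for Rad23b, -0.71 for Ube3c and 0.080 for Uchl5. Leaving out 1 sample gave -0.0023 to 0.26 for Psma3, -0.018 to 0.10 for Psmb4, -0.10 to 0.021 for Psmb6, -0.070 to 0.036 for Psmb7, -0.013 to 0.28 for Psmb8, -1.05 to 1.03 for Psmd2, -0.043 to 0.27 for Psme2, -0.024 to 0.24 for Ube3c and -0.088 to 0.17 for the dimmer probe of Psme1. The causes were not tested. Dim probes limit the reading of 8 subunits, whose median SD within groups was 0.61.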
